A study of Mus musculus with 72 samples.

Results

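The diet response of mouse intestine at lights off was measured on 6 of the 72 arrays of this series, 3 from mice on a ketogenic diet (replicates 11, 12 and 31) and 3 from mice on chow (replicates 17, 18 and 32), all collected at zeitgeber time 12 (ZT12). Zeitgeber time counts hours from lights on. The 30 intestine arrays of the other 5 time points (ZT0, ZT4, ZT8, ZT16 and ZT20, again 3 per diet) served to show what was particular to ZT12, and the liver arrays were not used here. All mice were male C57BL/6J, 8 weeks old at the start, kept under 12 h light and 12 h dark and fed either diet freely for 4 weeks. The protocol text shared by all samples also describes a daily fructose gavage in the last week and sucrose in drinking water. Whether these applied to the arrays used here is not stated, and the extraction text describes liver only. The tissue is labelled INTESTINE (IEC), the region of the gut is not given, and the labels do not say that replicates are separate animals, so the tests measure the spread between these samples.

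A ketogenic diet is rich in fat and very low in carbohydrate. Absorbed fatty acids activate the nuclear receptor PPARA, which turns on genes for importing and burning fat in mitochondria and peroxisomes. Cholesterol is built from acetyl-CoA by a chain of enzymes whose genes are switched on together by SREBP2, a transcription factor released when sterols in the endoplasmic reticulum run low. In nocturnal mice lights off is the start of the main feeding period, and many gut genes for absorption anticipate it under control of the circadian clock.

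The labelled tissue showed its defining transcripts. All 10 absorptive enterocyte markers passed the filter on low values, none differed between diets at ZT12, and their summed intensity was 75619 to 80634 on the ketogenic arrays and 69642 to 78691 on the chow arrays. Within each diet the ZT12 arrays were even: after removal of group means their residual SD was 0.087 to 0.125 (median of all 36 intestine arrays 0.116). That measure cannot show an offset between the diets. Median intensity over all probe sets was 117.1, 119.9 and 116.0 on the ketogenic arrays and 109.5, 110.0 and 112.2 on the chow arrays, without overlap. Across genes, arrays of the same diet correlated at 0.989 to 0.995 and arrays of different diets at 0.980 to 0.987. Outside ZT12, 3 ketogenic arrays stood apart, ZT0 replicate 1 (residual SD 0.246), ZT8 replicate 26 (0.181) and ZT20 replicate 27 (0.180), against 0.157 for the next array. They do not enter the ZT12 difference itself but do enter the spread that the test uses and every comparison with other time points, so results that rest on them are given with and without them.

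At ZT12 the ketogenic intestine carried more RNA of fat oxidation genes and less of cholesterol synthesis genes than the chow intestine. Of 12463 genes, 193 (1.55%) differed at an adjusted p under 0.05, called below, with 73 (0.586%) higher and 120 (0.963%) lower on the ketogenic diet. The difference reached 1.5-fold for 68 of them, 30 higher and 38 lower. The test was limma's moderated test on log2(intensity + 16), fitted to all 36 intestine arrays, and differences below are ketogenic minus chow on that log2 scale, with standard errors. The median difference over all genes was -0.04. When arrays were centred on their medians, 387 genes were called, with 58 higher and 329 lower. Leaving out an array moved the count to 67 without chow replicate 17, 89 without chow replicate 18, 97 without ketogenic replicate 11, 69 without ketogenic replicate 12, 72 without ketogenic replicate 31 and 225 without chow replicate 32.

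**Figure D1:**
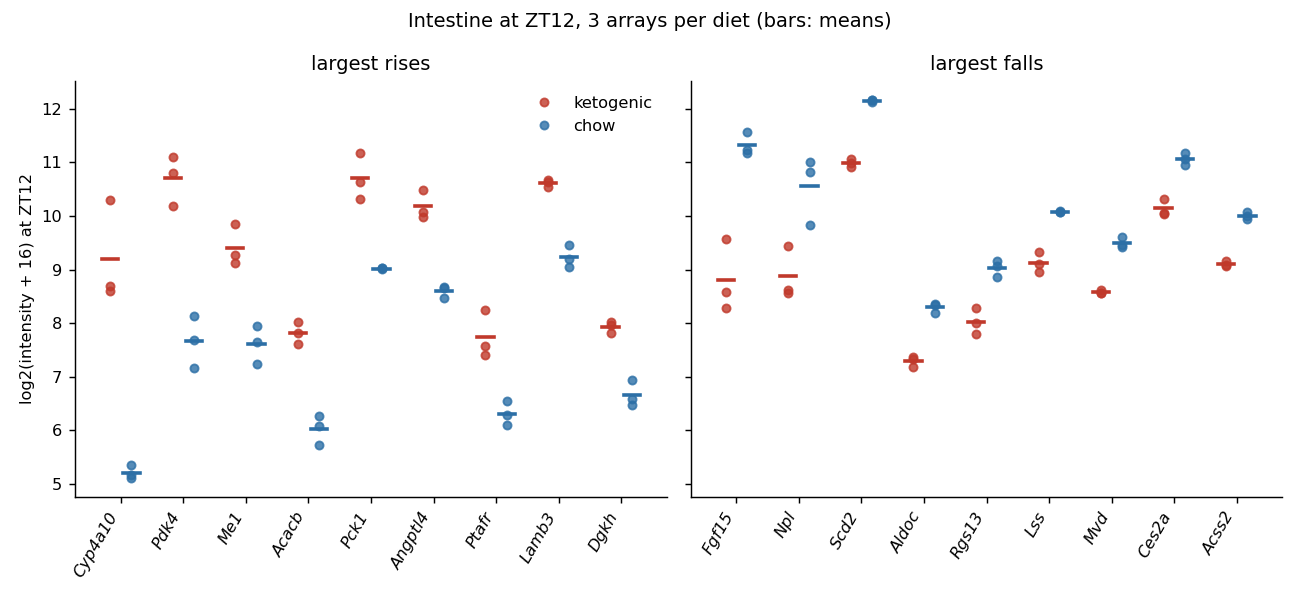
Level of 9 genes among the largest called rises (left) and 9 among the largest called falls (right) at ZT12, as log2(intensity + 16) on the vertical axis; each point is 1 array (3 ketogenic left of 3 chow for each gene) and bars are group means. The 3 ketogenic arrays lie above the 3 chow arrays for each gene on the left and below them for each gene on the right.

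Among the rises, Cyp4a10 (probe set 10507163), a cytochrome P450 that oxidises the end of the fatty acid chain and a classic PPARA target, had log2 levels of 8.69, 8.61 and 10.30 on the ketogenic arrays, against 5.12, 5.36 and 5.16 on the chow arrays. Replicate 31 was the highest ketogenic array, and the groups did not overlap. The difference was 3.98 ± 0.62 (15.8-fold, adjusted p = 0.000561). Because the chow intensities of 18.7, 25.2 and 19.8 were near the added 16, its size depends on that constant, with 4.69 for an added 1 and 2.91 for an added 64. Cyp4a10 was called at all of the other 5 time points too, with differences of 1.96 to 4.73. Pdk4 (10543017), the kinase that shuts pyruvate out of the citric acid cycle, had 10.19, 10.81 and 11.11 on the ketogenic arrays and 7.16, 7.69 and 8.14 on the chow arrays. Its difference was 3.04 ± 0.43 (8.21-fold, adjusted p = 0.000114), next to 1.41 to 3.15 at the other times.

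Further rises belonged to the handling of acetyl and fatty acyl groups. Me1, the cytosolic malic enzyme that makes NADPH, differed by 1.80 ± 0.24 (adjusted p = 0.000105), and its second probe set gave 1.72. Acacb, the acetyl-CoA carboxylase whose malonyl-CoA restrains mitochondrial fatty acid entry, had 7.61, 8.03 and 7.82 on the ketogenic diet and 6.27, 5.74 and 6.08 on chow. The difference of 1.79 ± 0.18 (adjusted p = 4.66e-07) was smaller than at ZT0, ZT4, ZT16 and ZT20 (2.25 to 2.85) and larger than at ZT8 (1.24). Pck1, the enzyme that commits oxaloacetate to glucose or glyceride-glycerol, rose by 1.69 ± 0.36, and Angptl4, a secreted inhibitor of lipoprotein lipase, by 1.57 ± 0.24 (adjusted p = 0.0125 and 0.000458). The call of Pck1 was lost without chow replicate 17 or without ketogenic replicate 31 (highest adjusted p = 0.101).

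The remaining genes of largest rise have other roles. Ptafr, the receptor for platelet-activating factor, rose by 1.43 ± 0.32 (adjusted p = 0.0166), a call lost without chow replicate 17 or ketogenic replicate 31. Lamb3, a laminin chain of the epithelial basement membrane, rose by 1.38 ± 0.19, and Dgkh, a diacylglycerol kinase, by 1.27 ± 0.20 (adjusted p = 0.000113 and 0.000561). Lamb3 and Dgkh were called at all of the other 5 time points, and Ptafr at 4 of them, all except ZT8.

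Of 41 listed genes of fatty acid oxidation and PPAR targets 37 passed the filter, and 13 of them were higher at ZT12 (0.586% of all genes) and 0 lower, with a median difference of 0.32 (all genes -0.04). On 23 of the 37 all ketogenic arrays lay above all chow arrays, as on 13.3% of all genes. Acadl, the long-chain acyl-CoA dehydrogenase, had 10.86, 10.85 and 10.93 on the ketogenic arrays and 9.72, 10.05 and 10.09 on the chow arrays, a difference of 0.92 ± 0.14 (adjusted p = 0.000312). The carnitine shuttle that carries fatty acids into mitochondria rose at each of its 3 called steps, Cpt1a by 0.44, Slc25a20 by 0.51 and Cpt2 by 0.34. Acot2, a mitochondrial acyl-CoA thioesterase, rose by 1.01 ± 0.27 (a call lost on leaving out any of the 6 arrays), and Pex11a, which acts in peroxisome division, by 0.72 ± 0.13. The list's median at the other times was 0.43 at ZT0, 0.27 at ZT4, 0.05 at ZT8, 0.37 at ZT16 and 0.37 at ZT20, and in the test of ZT12 against the other 5 the smallest adjusted p of a member was 0.931. With the 3 arrays that stood apart left out, the list median was 0.30 at ZT0, 0.32 at ZT20 and -0.04 at ZT8, where 1 member was then higher and 9 lower (5 and 3 with them). In that fit 977 of all 12463 genes were higher at ZT8 and 2318 lower. The count of 13 became 6 without chow replicate 17, 6 without ketogenic replicate 12, 7 without ketogenic replicate 31 and 9 after median centring. It was 20, with 1 member lower, without the 3 arrays (2.90% and 4.62% of all genes).

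Of 20 tested genes of fat uptake and chylomicron assembly 1 rose (0.586% of all genes), Fabp1, the cytosolic fatty acid carrier of the enterocyte, with 12.42, 12.48 and 12.78 on the ketogenic arrays and 11.11, 11.80 and 11.43 on the chow arrays (1.11 ± 0.21, adjusted p = 0.00399). Of 14 lipid droplet and lipolysis genes 1 rose, Mgll, which completes triglyceride breakdown (0.95 ± 0.19, adjusted p = 0.00636). With those 3 arrays left out, 3 of the 20 and 4 of the 14 were higher (2.90% of all genes). With all arrays, of 16 tested antioxidant genes of the NRF2 pathway 1 rose (0.586% of all genes). It was Akr1b8, an aldo-keto reductase (1.24 ± 0.20, adjusted p = 0.000561, against 1.54 to 2.25 at the other times).

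The deepest fall was that of Fgf15 (probe set 10559373), the hormone that ileal enterocytes release in response to bile acids. Its log2 levels were 8.28, 8.58 and 9.58 on the ketogenic arrays and 11.23, 11.57 and 11.18 on the chow arrays, a difference of -2.51 ± 0.57 (5.71-fold, adjusted p = 0.0186). The call was lost without either of chow replicates 17 and 18 or either of ketogenic replicates 11 and 12 (highest adjusted p = 0.0908). Fgf15 was also lower at the other times, by -1.54 to -2.38, with calls at ZT0, ZT4 and ZT8. Without the 3 arrays that stood apart it was called at all of the other 5 times, by -1.78 to -2.61. Ileal marker genes apart from Fgf15 gave no call: Fabp6, the ileal bile acid binding protein, differed by -0.40, and Slc10a2, the ileal bile acid importer, by 0.27. The summed intensity of all 6 ileal markers was 20117 to 20452 on the ketogenic arrays and 22435 to 24339 on the chow arrays. That sum includes Fgf15 itself, at 295, 366 and 747 on the ketogenic arrays and 2390, 3015 and 2299 on the chow arrays. The gap between the sums therefore does not show a fall of the other ileal markers. In bulk tissue, fewer cells of a type and less RNA per cell cannot be told apart, nor can a shift in the stretch of gut sampled, which was not tested.

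Other large falls had the same sign at the other times. Npl, the N-acetylneuraminate lyase of sialic acid breakdown, had 8.63, 8.56 and 9.43 on the ketogenic arrays and 11.01, 10.82 and 9.84 on the chow arrays, with chow replicate 32 nearest to the ketogenic group. Its difference was -1.68 ± 0.33 (adjusted p = 0.00616), while the other 5 times gave -2.00 to -2.78. The call was lost without chow replicate 17 or ketogenic replicate 12. Scd2 and Elovl5, which desaturate and elongate fatty acids, fell by 1.16 and 0.65, and Ces2a, an intestinal carboxylesterase, by 0.92 (adjusted p = 0.00728, 0.00153 and 0.00769). Without the 3 arrays that stood apart their other-time differences were -0.74 to -1.40, -0.39 to -0.79 and -0.91 to -1.36. The call of Ces2a was lost without ketogenic replicate 12 (adjusted p = 0.0519). Aldoc, an aldolase of glycolysis, fell by 1.00 ± 0.14 at ZT12 (adjusted p = 0.000105), against -0.20 to -1.05 at the other times. Without the 3 arrays it was uncalled at ZT0 and ZT4 (adjusted p = 0.0796 and 0.444).

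Rgs13, a regulator of G protein signalling that marks tuft cells, the chemosensory cells of the epithelium, had 8.28, 7.81 and 8.01 on the ketogenic arrays and 9.07, 9.16 and 8.86 on the chow arrays, and fell by 1.00 ± 0.14 (adjusted p = 0.000114). Of 9 tested tuft markers 2 fell (0.963% of all genes lower) and 7 were not called, among them Dclk1 at -0.32 and Trpm5 at -0.28. At ZT0, ZT4, ZT8, ZT16 and ZT20 the lower markers numbered 3, 5, 5, 4 and 1 (7.52%, 2.46%, 5.83%, 5.66% and 5.06% of all genes). The list median was -0.19 at ZT12 and -0.24, -0.39, -0.35, -0.25 and -0.19 at those times. Without the 3 arrays that stood apart Rgs13 differed by -0.47 to -1.01 at the other times. The summed intensity of the 12 tuft markers on the array was 2051 to 2251 on the ketogenic arrays and 2733 to 2799 on the chow arrays.

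Sterol genes were lower on the ketogenic diet at ZT12, while at ZT0, ZT4 and ZT20 their median was at or above the chow level. All 25 listed genes of cholesterol synthesis and uptake passed the filter, and 9 were lower at ZT12 (background 0.963%) and 0 higher. All 25 differences were below 0, with a median of -0.54, and on 23 of the 25 the 3 ketogenic arrays lay below the 3 chow arrays (18.3% of all genes). At the other times the median was 0.02 at ZT0, 0.02 at ZT4, -0.32 at ZT8, -0.30 at ZT16 and 0.21 at ZT20. Without the 3 arrays that stood apart, 20 of the 25 were lower at ZT12 (4.62% of all genes), and the medians at the times those arrays belong to were 0.21 at ZT0, -0.36 at ZT8 and 0.37 at ZT20. The count of 9 was 2 to 4 when any of the 6 ZT12 arrays was left out (2 without ketogenic replicate 11 or 31, 3 without chow replicate 17 or 18, 4 without chow replicate 32 or ketogenic replicate 12), and 14 after median centring.

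**Figure D2:**
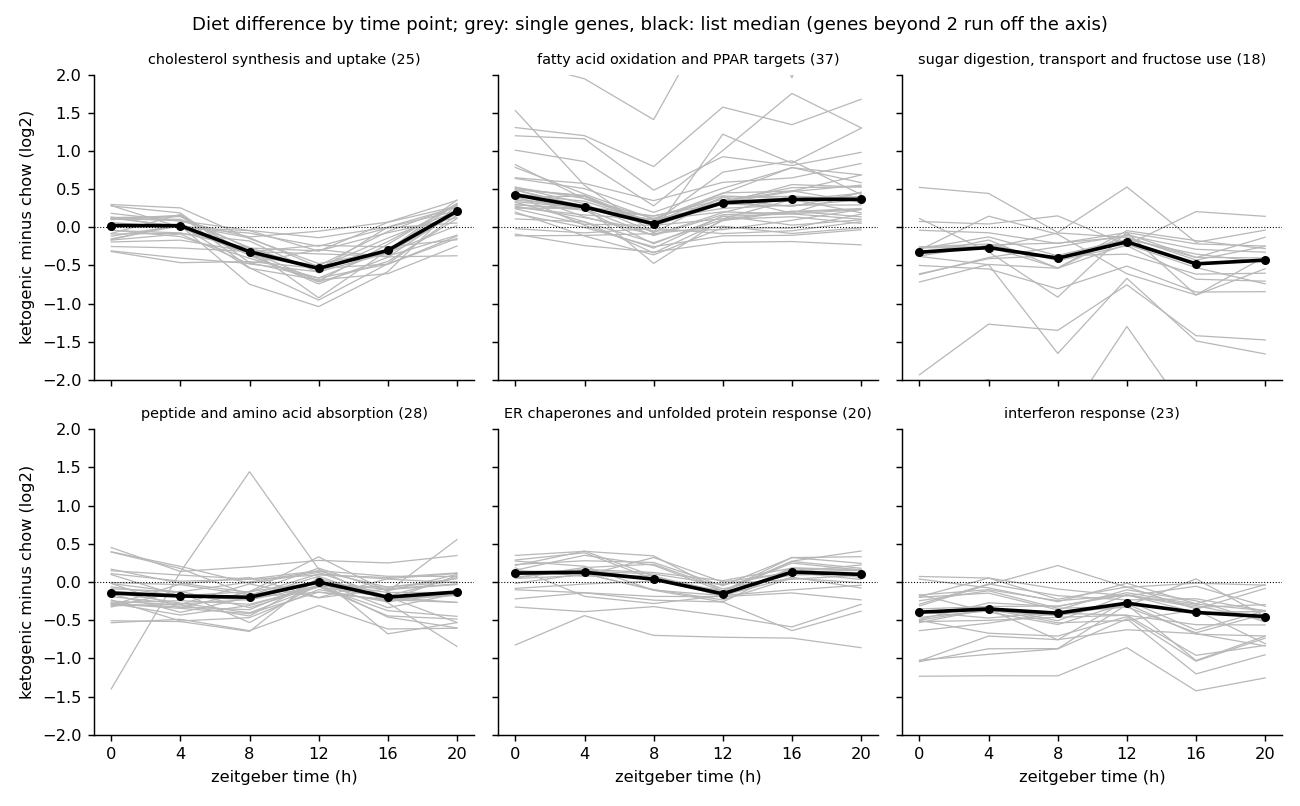
Diet difference (ketogenic minus chow, log2, vertical axis) at each zeitgeber time (horizontal axis) for 6 gene lists; grey lines are single genes, black points the list median, and the number of genes is in brackets. The median of the cholesterol list is lowest at ZT12 (-0.54), while the medians of sugar and of peptide and amino acid absorption lie nearest to 0 there (-0.19 and 0.00).

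The called genes run along the pathway. In the mevalonate steps, Pmvk and Mvd, which phosphorylate and decarboxylate mevalonate intermediates, fell by 0.69 and 0.92. Mvd (probe set 10582310) had 8.56, 8.61 and 8.56 on the ketogenic arrays and 9.62, 9.43 and 9.46 on the chow arrays (-0.92 ± 0.18, adjusted p = 0.00603), a gap several times the spread within either diet. Acat2, the cytosolic thiolase that starts the pathway, fell by 0.72 (adjusted p = 0.0318). Lss (10364194), which closes the sterol rings, had 9.11, 9.33 and 8.95 on the ketogenic arrays and 10.09, 10.08 and 10.08 on the chow arrays (-0.95 ± 0.23, adjusted p = 0.0259). The calls of Lss and Acat2 were lost on leaving out any of the 6 ZT12 arrays, while that of Mvd held throughout (highest adjusted p = 0.0427).

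The late enzymes Tm7sf2, Nsdhl and Dhcr7, which turn lanosterol products into cholesterol, fell by 0.54, 0.52 and 0.67. Dhcr7, the last reductase, had 9.54, 9.69 and 9.49 on the ketogenic arrays and 10.24, 10.11 and 10.37 on the chow arrays (adjusted p = 0.000112). Stard4, a sterol carrier, fell by 0.35. Srebf2, which encodes SREBP2, was not called (-0.14, groups overlapping). Npc1l1, the importer of dietary cholesterol, differed by -0.29 (adjusted p = 0.0567) and by -0.31 to -0.47 at the other times.

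Sterol-related genes outside the list moved alongside. Acss2 (10477649), which makes acetyl-CoA from acetate in the cytosol, had 9.15, 9.08 and 9.08 on the ketogenic arrays and 10.08, 9.95 and 10.00 on the chow arrays, a fall of 0.90 ± 0.10 (adjusted p = 3.78e-06). Mmab, a vitamin B12 enzyme, had 7.09, 7.18 and 7.21 on the ketogenic arrays and 7.86, 7.65 and 7.49 on the chow arrays (-0.51 ± 0.12, adjusted p = 0.0199). On the lipogenesis list, Insig1, which retains SREBP in the endoplasmic reticulum, differed by -0.59 and Fasn, the fatty acid synthase, by -0.47. Neither was called (adjusted p = 0.0538 and 0.0836), although for both genes all ketogenic arrays lay below all chow arrays.

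**Figure D3:**
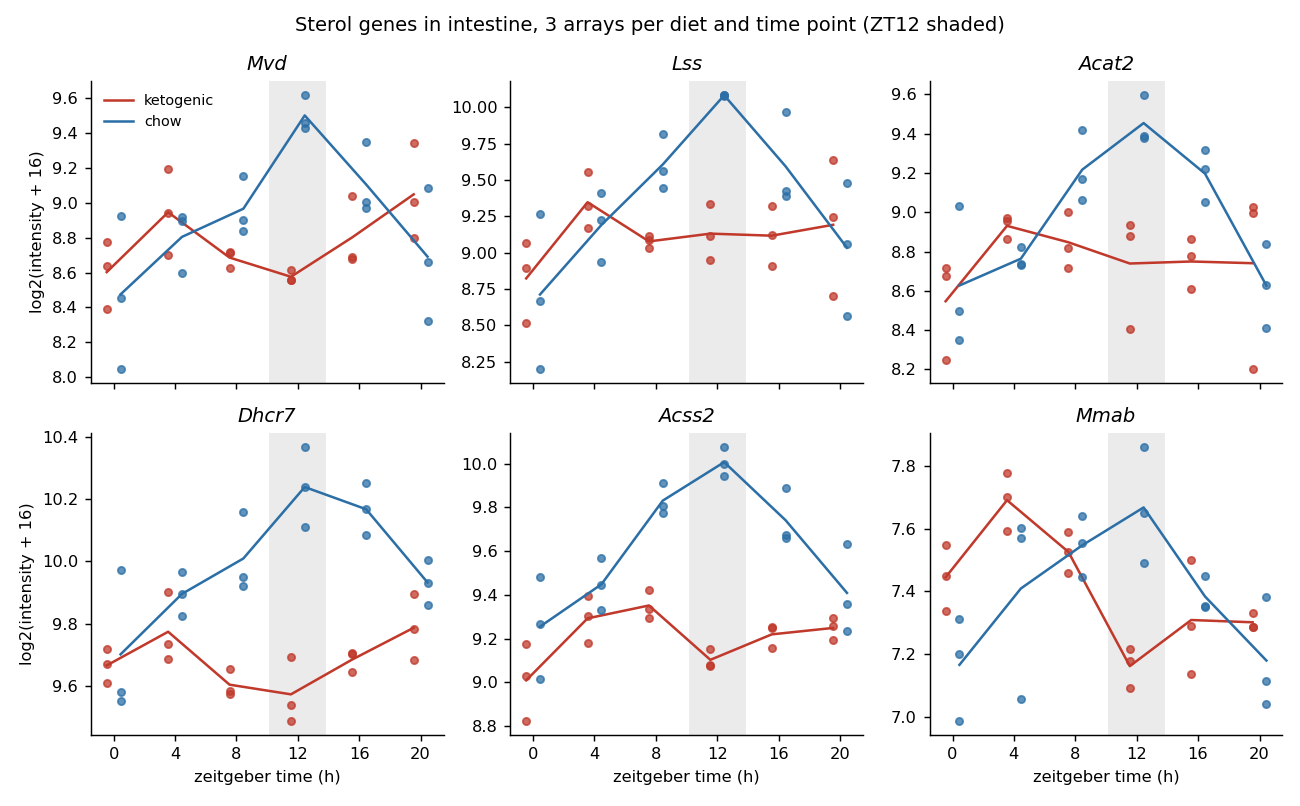
Level of 6 sterol-related genes, as log2(intensity + 16), at each zeitgeber time; each point is 1 array (ketogenic red and left, chow blue and right) and lines join group means. At ZT12 all ketogenic points lie below all chow points in each panel, and the chow mean is at its highest there, 9.50 for Mvd and 10.01 for Acss2.

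SREBP2 acts on promoters together with NF-Y, which binds a CCAAT box. The promoters of 4 genes are shown, 3 of genes called lower at ZT12 (Mvd, Lss and Acss2) and 1, of Mvk, that it shares with the called gene Mmab, each from 250 bases before to 50 bases after a gene start in the RefSeq annotation of GRCm38.p6, 5′ to 3′ on the gene's strand, with CCAAT or its reverse ATTGG in capitals. These are Mvd at chr8:122443373-122443672 (minus strand), Lss at chr10:76531355-76531654 (plus), Acss2 at chr2:155517793-155518092 (plus) and Mvk, mevalonate kinase, at chr5:114444019-114444318 (plus).
Mvd: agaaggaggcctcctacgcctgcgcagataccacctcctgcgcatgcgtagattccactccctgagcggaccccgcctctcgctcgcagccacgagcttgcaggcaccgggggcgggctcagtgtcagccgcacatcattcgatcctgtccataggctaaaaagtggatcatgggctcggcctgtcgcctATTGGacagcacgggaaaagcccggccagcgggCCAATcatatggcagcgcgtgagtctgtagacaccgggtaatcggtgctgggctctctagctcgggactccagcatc
Lss: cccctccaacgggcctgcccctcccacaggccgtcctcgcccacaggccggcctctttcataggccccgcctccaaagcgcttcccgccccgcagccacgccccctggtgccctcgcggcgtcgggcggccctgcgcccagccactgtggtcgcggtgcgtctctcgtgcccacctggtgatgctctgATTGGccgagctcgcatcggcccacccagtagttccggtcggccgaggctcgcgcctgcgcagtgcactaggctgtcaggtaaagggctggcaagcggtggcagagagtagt
Acss2: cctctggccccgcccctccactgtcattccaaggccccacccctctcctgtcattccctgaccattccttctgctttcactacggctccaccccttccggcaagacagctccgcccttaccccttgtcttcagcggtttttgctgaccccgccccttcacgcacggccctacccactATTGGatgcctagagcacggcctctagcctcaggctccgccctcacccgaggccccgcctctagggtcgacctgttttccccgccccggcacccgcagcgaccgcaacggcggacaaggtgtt
Mvk: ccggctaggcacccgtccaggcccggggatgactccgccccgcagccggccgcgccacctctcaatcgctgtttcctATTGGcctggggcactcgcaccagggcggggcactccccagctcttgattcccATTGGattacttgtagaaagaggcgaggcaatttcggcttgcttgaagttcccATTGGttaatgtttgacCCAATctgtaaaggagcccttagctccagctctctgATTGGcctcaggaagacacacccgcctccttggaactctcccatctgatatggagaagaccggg
The Mvk promoter is shared with Mmab, which is read from the other strand: the windows of the 2 genes have 259 bases in common. Mvk, like Mmab, was lower on every ketogenic array, with 8.84, 9.11 and 8.93 against 9.53, 9.38 and 9.39 on the chow arrays, but was not called (-0.47 ± 0.15, adjusted p = 0.0846). Promoters of 17 of the 25 listed genes were matched, and CCAAT on either strand stood in 16 of their 20 windows (80%), against 37.4% of 32851 windows of all genes. All 4 promoters shown hold it. The window of the called gene Acat2 has none, and the called genes Pmvk and Dhcr7 have windows both with and without it. The sterol element TCACNCCAC, on either strand, stood in 1 of the 20 windows, that of Hmgcs1, and in 1.24% of all windows. On the fat oxidation list CCAAT stood in 48.4% of 31 windows and the sterol element in 2 of them (6.45%). These are matches of letters and do not show binding.

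Whether a gene's ZT12 difference departed from its mean difference at the other 5 time points was tested directly. Of 12463 genes 0 passed at an adjusted p under 0.05 with limma, while 620 (4.97%) had an unadjusted p under 0.05, 350 above and 270 below the other times. The same comparison called 1 gene after median centring, 147 with array weights and 23 without the 3 arrays that stood apart, and 0 under each other setting of scale, filter and probe set and on leaving out any 1 ZT12 array. Of the 25 sterol genes 17 lay below the other 5 at an unadjusted p under 0.05, against 2.17% of all genes, and 0 above. Without the 3 arrays 19 did (8.67% of all genes), and 2 were called, Mvd (-0.98 ± 0.20, adjusted p = 0.0293) and Idi1, the isomerase that follows Mvd (-0.76 ± 0.15, adjusted p = 0.0285). Without ketogenic replicate 31 the 17 became 10. Against the mean of ZT8 and ZT16 alone, where the list was also low, 1 of the 25 had an unadjusted p under 0.05.

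The genes with the smallest p below the other times were Acss2, Mmab, Mvd, Dhcr7 and Ndufab1, none called with all arrays. For Acss2 the ZT12 difference lay 0.59 ± 0.11 further below 0 than the other 5 (adjusted p = 0.139), and it was called after median centring and without the 3 arrays (adjusted p = 0.0248 and 0.0251). Mvd was 0.13 at ZT0, 0.14 at ZT4, -0.28 at ZT8, -0.30 at ZT16 and 0.36 at ZT20, so that its departure was -0.93 ± 0.20 (adjusted p = 0.217). Mmab was 0.28, 0.28, -0.02, -0.08 and 0.12 at those times (departure -0.62 ± 0.13, adjusted p = 0.217), and was called without the 3 arrays (adjusted p = 0.0331). Ndufab1, the mitochondrial acyl carrier protein, had 10.04, 9.99 and 9.98 on the ketogenic arrays and 10.32, 10.37 and 10.23 on the chow arrays at ZT12. It fell there by 0.30 ± 0.07 (adjusted p = 0.0244, second probe set -0.32) and lay between -0.10 and 0.11 otherwise.

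Of the 193 genes called at ZT12, 189 had the same sign in the mean of the other 5 times, and 177 were also called in that mean, where 45.4% of all genes were called. Called at ZT12 with no call at any other single time point were 38 genes, and 48 were called with the same sign at all 6. The 16 genes not called in the mean of the other 5 included the sterol genes Lss, Mvd, Acat2 and Nsdhl, and Mmab. Also among them were Psmb5, a proteasome subunit (-0.47), Cetn2, a centrin (-0.58), the respiratory chain genes Ndufb1 (-0.31) and Ndufab1, and the higher genes Ccn4 (0.48), Cabp4 (0.47), Tspan11 (0.41), Mir681 (0.38), Stx1a (0.37) and Chd5 (0.28). These counts describe where calls fall and are not tests of a difference between times.

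The same sterol genes were followed from lights on to lights off within each diet. These comparisons share the ZT12 arrays with the diet difference and are a second view of it. From ZT0 to ZT12 on the ketogenic diet 1 of the 25 genes was higher at ZT12 (Msmo1, a sterol demethylase), against 4.1% of all genes, with a median change of 0.22. On chow 21 of the 25 were higher at ZT12, against 2.32% of all genes, with a median of 0.80. Without the 3 arrays that stood apart the ketogenic count was 0, with a median of 0.04, and the chow count 21. For Lss the change from ZT0 was 0.31 on the ketogenic diet (adjusted p = 0.50) and 1.37 on chow (adjusted p = 0.00027), and for Acss2 0.09 (adjusted p = 0.67) and 0.75 (adjusted p = 1.3e-05). Chow Lss levels at ZT12 of 10.08 to 10.09 lay above those at ZT0 of 8.20 to 9.27, while ketogenic levels of 8.95 to 9.33 overlapped those at ZT0 of 8.51 to 9.06. The difference between the diets in this change was called for 0 of the 25 genes and, over all genes, for 1 (0.00802%, Nr1d1). At an unadjusted p under 0.05, 13 of the 25 changed less on the ketogenic diet, and 860 of all genes (6.9%) differed in either direction. Without the 3 arrays 6 of all genes were called (0.0481%), among them Acss2 (-0.75 ± 0.15, adjusted p = 0.0480), which is outside the list.

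Several absorption genes that were lower on the ketogenic diet at other times were nearer to the chow level at ZT12. Of 18 genes of sugar digestion, transport and fructose use 2 fell at ZT12 (0.963% of all genes). They were Slc5a4a, a sodium glucose cotransporter family member (-0.75 ± 0.18, adjusted p = 0.0279), and Arrdc4, a glucose-responsive arrestin (-0.61 ± 0.15, adjusted p = 0.0351). Both calls were lost when single arrays were left out, for Slc5a4a with each ZT12 array except chow replicate 32 and for Arrdc4 with each of the 6. At ZT0, ZT4, ZT8, ZT16 and ZT20 the counts of lower genes were 7, 5, 7, 12 and 9 (7.52%, 2.46%, 5.83%, 5.66% and 5.06% of all genes), and the list median was -0.19 at ZT12 against -0.27 to -0.48 at the other times. Slc2a2, the facilitative GLUT2 carrier, had 10.31, 10.05 and 10.67 on the ketogenic arrays and 11.62, 11.72 and 11.58 on the chow arrays at ZT12 (-1.30 ± 0.36, adjusted p = 0.0602), next to called differences of -1.99 to -3.47 at the other 5 times. Slc5a1, the apical SGLT1 carrier, was at -0.22, Sis, the sucrase-isomaltase, at -0.16 and Mgam, the maltase-glucoamylase, at -0.10. All 3 were uncalled at ZT12 and lower at each other time.

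Against the other 5 times, Slc2a2, Slc5a4a, Slc5a1, Sis and Mgam lay above at an unadjusted p under 0.05 (2.81% of all genes) and none below, and none was called. Without the 3 arrays that stood apart Slc2a2 (1.53 ± 0.26) and Slc5a4a (0.84 ± 0.15) were called (adjusted p = 0.0251 each). The diet difference at ZT12 itself was then called lower for 6 of the 18 sugar genes and higher for 1 (4.62% and 2.90% of all genes). Over the 28 genes of peptide and amino acid absorption 0 were called at ZT12, with a median of 0.00 (from -0.13 to -0.20 at the other times). Of these, 8 lay above the other times at an unadjusted p under 0.05 (2.81% of all genes) and 0 below, among them Slc15a1, the dipeptide carrier PEPT1 (0.05 at ZT12, -0.27 in the mean of the other 5) and Slc7a15 (0.07 and -0.58). Without the 3 arrays 15 of the 28 lay above (6.67% of all genes), and Slc7a15 was called (0.77 ± 0.14, adjusted p = 0.0260). From ZT0 to ZT12, with all arrays, 12 of the 28 were higher on the ketogenic diet and 6 on chow (4.1% and 2.32% of all genes).

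Of 14 genes of bile acid and sterol handling Fgf15 alone was called at ZT12 (0.963% of all genes lower). The list median was -0.06 (from -0.02 at ZT20 to -0.37 at ZT4 at the other times). On this list 4 lay above the other times at an unadjusted p under 0.05 (2.81% of all genes) and 0 below. Abca1, which loads cholesterol onto HDL, had 9.95, 9.48 and 10.23 on the ketogenic arrays and 9.95, 10.09 and 9.91 on the chow arrays at ZT12 (-0.10 ± 0.22), and -0.58 to -1.33 at the other times. Abcg5 and Abcg8, which together return sterols to the gut lumen, were at -0.26 and -0.16 at ZT12 and averaged -0.62 each over the other times. Cyp27a1, a mitochondrial sterol hydroxylase, had 9.66, 9.74 and 10.02 on the ketogenic arrays and 9.97, 10.13 and 10.30 on the chow arrays. Its groups overlapped at ZT12 (-0.33 ± 0.17, adjusted p = 0.278), whereas it was called lower at all of the other 5 times, by -0.88 to -1.56 (departure 0.81 ± 0.19, adjusted p = 0.372). Other genes above the other times with the smallest p, none called, were Rnf208, Fam118a, Ptprh and Adam4, by 0.39, 0.53, 0.35 and 0.55. Fam118a and Ptprh were called without the 3 arrays (adjusted p = 0.0285 and 0.0331).

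**Figure D4:**
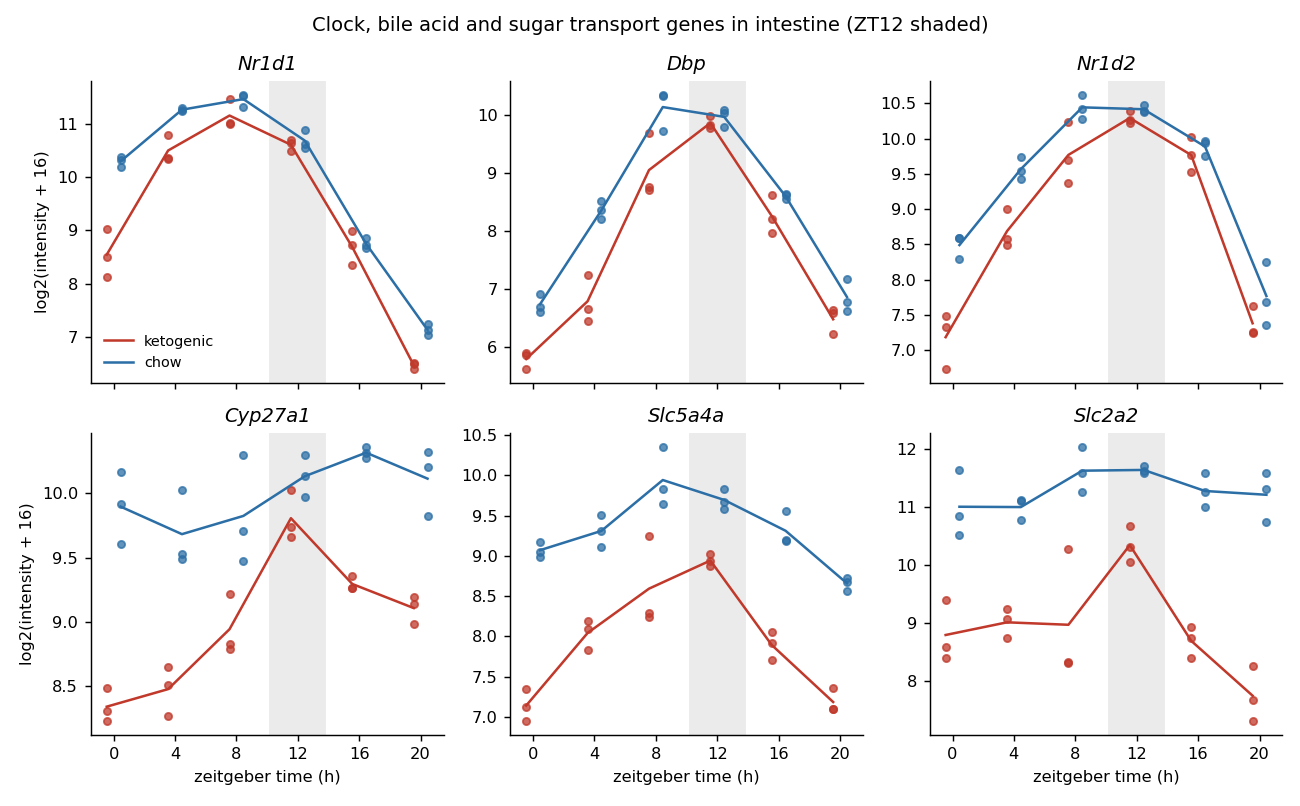
Level of 3 clock genes and 3 genes of sterol oxidation and sugar transport, as log2(intensity + 16), at each zeitgeber time; points are arrays (ketogenic red and left, chow blue and right) and lines join group means. The groups overlap at ZT12 for Nr1d1, Dbp, Nr1d2 and Cyp27a1, and all ketogenic points lie below all chow points for Slc5a4a and Slc2a2.

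The molecular clock is a loop in which BMAL1 and CLOCK drive their own repressors, among them the PER proteins and the REV-ERB receptors encoded by Nr1d1 and Nr1d2. At ZT12 these transcripts were near equal on the 2 diets. Nr1d1 had 10.64, 10.71 and 10.49 on the ketogenic arrays and 10.89, 10.63 and 10.56 on the chow arrays (-0.08 ± 0.16, adjusted p = 0.81). At ZT0 it had 8.12, 9.02 and 8.50 on the ketogenic arrays and 10.39, 10.32 and 10.19 on the chow arrays, a difference of -1.76. The ZT12 difference exceeded the ZT0 difference by 1.68 ± 0.23 (adjusted p = 0.000593), and by 1.46 ± 0.20 without ketogenic ZT0 replicate 1 and the other arrays that stood apart (adjusted p = 0.00122). Of genes tested for any change of the diet difference across the 6 times 4 were called (0.0321%), Nr1d1 (adjusted p = 0.00278), Acacb, Plekho2 and Pxmp4.

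Dbp, a clock-driven transcription factor, was at -0.11 at ZT12, with called differences of -0.94, -1.56 and -1.08 at ZT0, ZT4 and ZT8 and uncalled ones of -0.34 and -0.38 at ZT16 and ZT20. Nr1d2 was at -0.12, with -1.31, -0.88 and -0.67 called at the same times and -0.12 and -0.39 uncalled at ZT16 and ZT20. Small differences were thus shared with ZT16, where Nr1d1 was at -0.06 and Tef at -0.09, both uncalled. Per1, Per3, Tef and Fbxl21 were at -0.10, -0.07, -0.12 and -0.11 at ZT12 and uncalled, and Leo1, on the clock output list, at -0.17. Without the 3 arrays that stood apart Fbxl21 was at -0.39 to -0.81 at the other times, all called. Its ZT12 difference then lay above the other 5 by 0.48 ± 0.10 (adjusted p = 0.0331) and above ZT0 by 0.69 ± 0.13 (adjusted p = 0.0355). Of 16 core clock genes 1 fell at ZT12 (0.963% of all genes), Bhlhe40, a repressor of the loop. Bhlhe40 had 9.24, 9.19 and 9.32 on the ketogenic arrays and 9.91, 9.91 and 9.76 on the chow arrays (-0.61 ± 0.11, adjusted p = 0.00393). It was lower at all other times too. Core clock genes called lower numbered 5, 5, 7, 5 and 4 at ZT0, ZT4, ZT8, ZT16 and ZT20 (7.52%, 2.46%, 5.83%, 5.66% and 5.06% of all genes). All 16 were below 0 at ZT12, with a median of -0.11 (all genes -0.04). Of 16 clock output genes 0 were called at ZT12 (0.963% of all genes lower, 0.586% higher). Without the 3 arrays that stood apart 2 core clock genes and 1 clock output gene were lower there (4.62% of all genes).

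Of 20 genes of endoplasmic reticulum chaperones and the unfolded protein response 1 fell at ZT12 (0.963% of all genes). It was Ero1b, an oxidase of protein folding (-0.72 ± 0.16, adjusted p = 0.0131), with -0.44 to -0.86 at the other times. The list median was -0.15 at ZT12 and 0.04 to 0.13 at the other times, and 9 of the 20 lay below the other times at an unadjusted p under 0.05 (2.17% of all genes), with a smallest adjusted p of 0.886. When those 3 arrays were left out, 10 did (8.67% of all genes), and the ZT8 median was -0.08. There 6 members were lower, as were 2318 of all 12463 genes. With all arrays, the listed genes Hspa5, the chaperone BiP (-0.19 at ZT12), Hsp90b1 (-0.18) and Sdf2l1 (-0.12) were uncalled, with means of 0.13, 0.13 and 0.35 over the other times.

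Immune lists gave 1 call. Of 23 tested interferon response genes 0 were called at ZT12 (0.963% of all genes lower), and 4 to 9 were called lower at each of the other times (2.46% to 7.52% of all genes). On leaving out the 3 arrays that stood apart, 2 were lower at ZT12 (4.62% of all genes) and 8 to 15 at the other times (640 to 2318 of all 12463 genes). All 23 were below 0 at ZT12, with a median of -0.28 (from -0.35 to -0.45 at the other times). Of 7 MHC class II presentation genes, which show peptides to helper T cells, 1 fell, Ctss, the cathepsin that trims the invariant chain (-0.38 ± 0.08, adjusted p = 0.0121, lost without chow replicate 18 or ketogenic replicate 12). The class II genes themselves had larger but uneven differences: H2-Aa had 9.10, 10.59 and 6.94 on the ketogenic arrays and 10.19, 10.62 and 10.87 on the chow arrays (-1.68 ± 0.99, adjusted p = 0.336). H2-Ab1 and Cd74 were likewise high on ketogenic replicate 12 and low on replicate 31.

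No gene of cell cycle (38 tested), ribosome biogenesis (22), glycolysis (16), the citric acid cycle (21), heat shock (14), immediate early genes (18), ion and water transport (20), the ATF4 response (15) or antimicrobial epithelial genes (14) was called at ZT12. When the 3 arrays that stood apart were left out, 2 cell cycle genes and 1 of the citric acid cycle were lower, and 2 of ion transport and 1 of the ATF4 response higher. In that fit 4.62% of all genes were lower and 2.90% higher. Against the other 5 times 0 of the 38 cell cycle and 1 of the 22 ribosome biogenesis genes lay below at an unadjusted p under 0.05 with all arrays, and 23 and 11 without the 3 arrays (8.67% of all genes), none called. Cell cycle medians without them were -0.01 at ZT12 and 0.13 to 0.38 at the other times, and those of ribosome biogenesis 0.04 and 0.18 to 0.34. With all arrays, of 13 genes of gluconeogenesis and glycogen 1 rose, Pck1, and 1 fell (0.586% and 0.963% of all genes). The fall was that of Gbe1, the glycogen branching enzyme (-0.40 ± 0.10, adjusted p = 0.0301). Of 30 genes of cytochrome P450 and conjugation Ces2a alone was called at ZT12 (0.963% of all genes lower), with a list median of -0.06. At the other times 7 to 11 were lower (2.46% to 7.52% of all genes), with medians of -0.25 to -0.36. Against the other 5 times 3 of the 30 lay above at an unadjusted p under 0.05 (2.81% of all genes). Without the 3 arrays 16 did (6.67% of all genes), and 5 were lower at ZT12 (4.62% of all genes).

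Markers of other cell types were read on the same 6 arrays. Summed colon markers (8 on the array, 0 of 4 tested called) were 2723 to 3238 on the ketogenic arrays and 3372 to 3552 on the chow arrays. Summed enteric neuron and glia markers were 1119 to 1196 on the ketogenic arrays and 949 to 1010 on the chow arrays, with S100b called higher (0.44). Summed hepatocyte markers were 376 to 588 on the ketogenic arrays and 288 to 340 on the chow arrays, with 0 of 3 tested called. Summed markers of the proximal small intestine were 4846 to 7713 on the ketogenic arrays and 7494 to 9498 on the chow arrays, with 0 of 5 tested called. Sums also overlapped between the diets for goblet, Paneth, stem and crypt, enteroendocrine, T cell, B cell, macrophage, mast cell, smooth muscle, fibroblast, endothelial, adipocyte, pancreatic acinar and erythrocyte markers. The part of these shifts in the gene differences was not tested.

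The number of called genes depended on how the spread was estimated. With the spread shared over all 36 arrays ZT12 had the fewest, 193, against 1233 (9.89%) at ZT0, 425 (3.41%) at ZT4, 886 (7.11%) at ZT8, 978 (7.85%) at ZT16 and 795 (6.38%) at ZT20. When each time point's 6 arrays were fitted alone (for the other 5 time points a run added after these counts were known), ZT12 had 554 (4.45%), against 58, 768, 86, 1067 and 223. The median SD within groups was 0.099 at ZT12 in those fits, and 0.133 at ZT0. Without the 3 arrays that stood apart the counts were 937 at ZT12 and 1044, 964, 3295, 2118 and 1042 at the others. In the authors' deposited table, 4860 of 25006 probe sets (19.4%) had a Cyber-T p under 0.05 at ZT12, the most of the 6 times, against 9.29% to 15.1% at the others.

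**Figure D5:**
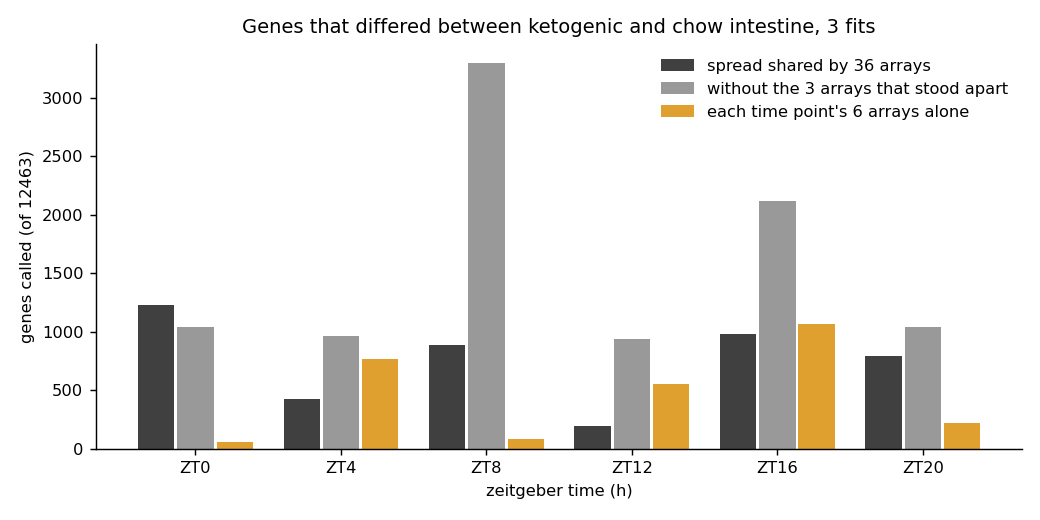
Number of genes called between ketogenic and chow intestine (vertical axis, of 12463) at each zeitgeber time (horizontal axis) in 3 fits: spread shared by 36 arrays, the same without 3 arrays, and each time point's 6 arrays alone. ZT12 has the lowest bar in the shared fit (193) and without the 3 arrays (937), but not in the separate fits (554).

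The size of the response was compared without calls at ZT12. Genes chosen on the other 5 times, called in their mean and at least 1.5-fold, numbered 173, and 172 of them had the same sign at ZT12. The median ratio of a gene's ZT12 difference to its mean difference at the other times was 0.72, with 0.87 for the 58 higher genes and 0.68 for the 115 lower genes. Genes chosen in the same way for each other time point gave median ratios of 0.82 to 1.06, with 0.49 (ZT8) to 1.13 (ZT0) for higher genes and at least 0.78 (ZT4) for lower genes. Without the 3 arrays the ratio at ZT12 was 0.61, and 0.76 to 1.06 at the others. These ratios are descriptions over genes, which are not independent replicates.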

How the data were processed

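Affymetrix arrays were hybridised per sample. The intensity values were deposited by the authors as 1 table of 72 arrays, made with Affymetrix Expression Console 1.1.1 and PLIER per the submitters' processing notes; the genome build is not given in the sources used here. A second deposited table by the authors gives group mean intensities, differences of means and a Cyber-T p-value for each time point. There were 0 other columns of values per sample. Arrays have no read depth, and 3 arrays per group limit the precision.

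From the deposited intensities, log2(intensity + 16) was computed. Of 35556 probe sets, 22819 had 1 gene name, 1621 had several and were not named, and 12737 stayed without a name. The probe set of highest mean stood for each of 20771 genes, and the 12463 genes whose mean over the 36 intestine arrays was above the 40th percentile were kept. In all, 7.47% of intestine values lay below the added 16, so fold changes of dim genes are understated. limma 3.58.1 (R 4.3.3; lmFit and eBayes, Benjamini-Hochberg) was fitted to 12 groups of 3 arrays with 1 shared spread, and the code was tested on simulated data. Contrasts were ketogenic minus chow at each time point, the ZT12 difference minus the mean of the other 5, ZT12 minus ZT0 within each diet, and any diet by time point interaction. Setting ZT0 in place of the other 5, and fitting each of the other time points alone, were added after seeing the data. Alternatives were the added constant, the filter, quantile normalization, median centring, an intensity trend, array weights, the mean of probe sets, a minimum fold, and leaving out arrays. Members and gene lists were chosen with earlier results of these data known. Genes named are the largest called rises and falls, the smallest p in the test against the other times, up to 4 called members of each list and 8 clock genes; others in the text, among them uncalled members given as values, were chosen after their values were seen. Some genes that this rule took are not reported here.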

Additional observations from a re-analysis of the deposited data

Results flagged for a closer look

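The diet difference changed across the 6 time points for 4 genes by limma's interaction test. Nr1d1 had an adjusted p of 0.00278, and its difference was -1.76 at ZT0, -0.77 at ZT4, -0.31 at ZT8, -0.08 at ZT12, -0.06 at ZT16 and -0.66 at ZT20. Its ZT12 difference also departed from its ZT0 difference (1.68 ± 0.23, adjusted p = 0.000593). Acacb had an adjusted p of 0.00845, with differences of 2.46, 2.25, 1.24, 1.79, 2.85 and 2.82 at the same times. Plekho2, a pleckstrin homology domain protein, had an adjusted p of 0.0247, with 0.31, -0.00, -0.46, 0.60, 0.77 and 0.35, and its second probe set gave 0.20 at ZT12. Pxmp4, a peroxisomal membrane protein, had an adjusted p of 0.0395, with 1.15, 0.59, -0.05, 0.71, 0.91 and 1.12.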

How the results depend on the processing

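Of 32 genes named for their ZT12 difference, 18 were called in every alternative run for them, and no ZT12 difference among the 32 changed sign. The 193 called genes (73 higher, 120 lower, 68 of at least 1.5-fold) became 387 (329 lower) with median centring, 2753 (1037 higher, 1716 lower, 155 of at least 1.5-fold) with array weights, 937 (361, 576 and 111) without the 3 arrays that stood apart, 554 (240, 314 and 122) with the 6 ZT12 arrays alone, and 68 (30 and 38) with a minimum fold of 1.5. With a 60th percentile filter 44 were higher. The 9 lower sterol genes became 14, 21, 20 and 17 with median centring, with array weights, without the 3 arrays and with the 6 arrays alone. Under the same settings the 13 higher fat oxidation genes became 9, 22, 20 and 17. Leaving out 1 ZT12 array gave 67 to 225 called genes, 28 to 69 higher, 34 to 156 lower, 41 to 67 of at least 1.5-fold, 2 to 4 sterol genes and 6 to 11 fat oxidation genes. It gave 0 genes called against the other 5 times and 10 to 16 sterol genes below them at an unadjusted p under 0.05. The 0 genes called against the other 5 times became 1 with median centring, 147 with array weights, 23 without the 3 arrays, 1 against ZT0 alone and 4 for any interaction. The 17 sterol genes below the other times became 1 against ZT8 and ZT16. Pxmp4 against the other times (-0.03, not called) turned to 0.054 without the 3 arrays, 0.28 against ZT8 and ZT16, with 0.027 without chow replicate 18 and -0.133 to 0.059 on leaving out any 1 ZT12 array. The causes were not tested. No paired analysis was possible because the ketogenic and chow arrays at ZT12 share no replicate number.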
